A study of Mus musculus with 8 samples.

Results

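The genes described here are 10 liver genes of growth factor signalling: the ligand gene Hgf and its receptor gene Met, the protease gene Hgfac, the related ligand gene Mst1, the inhibitor genes Spint1 and Spint2, the protease gene St14, the receptor genes Egfr and Erbb3 and the ligand gene Hbegf. They were taken by name from the count table, where all 10 have a row and all 10 were among the 14645 genes tested of 45706 gene rows. The set was chosen because Hgf and Spint1 were known to be higher in the knockout libraries. Differences between the genotypes in these 10 genes are therefore given as a description, and no p-value is printed for them. Their calls, thresholds and intervals come from the fit over all genes and are not tests of the set.

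RNA was sequenced from the livers of 8 C57BL/6 mice, 4 carrying the label HuR WT (wild type) and 4 the label HuR KO (knockout), with 1 library for each animal. Elavl1 encodes HuR, which binds AU-rich stretches of mRNAs. The deleted exons, the cells in which they were deleted, any Cre driver, the treatment and the age of the mice are not given in the sources used here. Animal numbers in the titles fall into a pair of series: WT replicate 3 and KO replicates 3 and 4 are numbered 98 to 100, and the other 5 animals have 4-digit numbers. They are called the 98 to 100 series and the 4-digit series here, and what the numbers mark is not stated.

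Hepatocyte growth factor (HGF) is secreted, in liver mainly by stellate and endothelial cells, as an inactive single chain that proteases cut into the active form. The active ligand binds the receptor tyrosine kinase MET on hepatocytes and other epithelial cells, where it is a known mitogen. HGF activator and matriptase (encoded by Hgfac and St14) cut HGF, and the membrane-anchored Kunitz-type inhibitors HAI-1 and HAI-2 (encoded by Spint1 and Spint2) block such proteases. The EGF receptor family is the other main mitogenic receptor system of hepatocytes, and shared adaptors and the RAS-ERK kinases carry signals of both receptor kinds.

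Total gene counts were between 18649618 and 31249286 per library. Levels below are CPM, gene counts relative to the library total, scaled by the trimmed mean of M values (TMM), and levels compared between genes are these values per kilobase of exon (RPKM). Elavl1 was at 32.7 to 46.6 CPM in the WT libraries and 45.6 to 56.0 CPM in the KO libraries, and was not called. Its gene count cannot check the labels, since the deleted part is not stated, and directions below are between libraries as labelled. Albumin (Alb) stood at 86970 CPM or more in every library. Counts of Xist were 16005 to 33496, and no Y-linked gene among 4 examined exceeded 1, so all the libraries carry the pattern of female mice. WT replicate 3 was no closer to the other WT libraries than to the KO libraries. Its mean root-mean-square log2 CPM difference was 0.597 from the former and 0.586 from the latter. Among the other WT libraries the mean was 0.528, and the other libraries were not each examined in this way.

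Of the 10 genes, 3 were called higher in the libraries labelled KO, Spint1, St14 and Hgf, and 0 were called lower (edgeR quasi-likelihood test over all genes, adjusted p under 0.05). Over all 14645 genes 2.32% were called higher and 1.37% lower, 3.69% in either direction. Because the set was chosen on this comparison, nothing is read from the members' count. The same 3 genes were those in which every KO library lay above every WT library, a pattern of 6.19% of all genes, and in 0 members did every KO library lie below (5.01% of all genes, 11.2% for either side). Met was the 1 member lower at an unadjusted p under 0.05, and DESeq2 and limma-voom also called 0 members lower. The members' median log2 fold change was 0.28 against -0.0046 over all genes, and nothing is read from it either, given how the set was chosen. Without WT replicate 3 the same 3 members were called, with log2 fold changes of 2.59 for Spint1, 2.21 for St14 and 0.50 for Hgf.

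**Figure D1:**
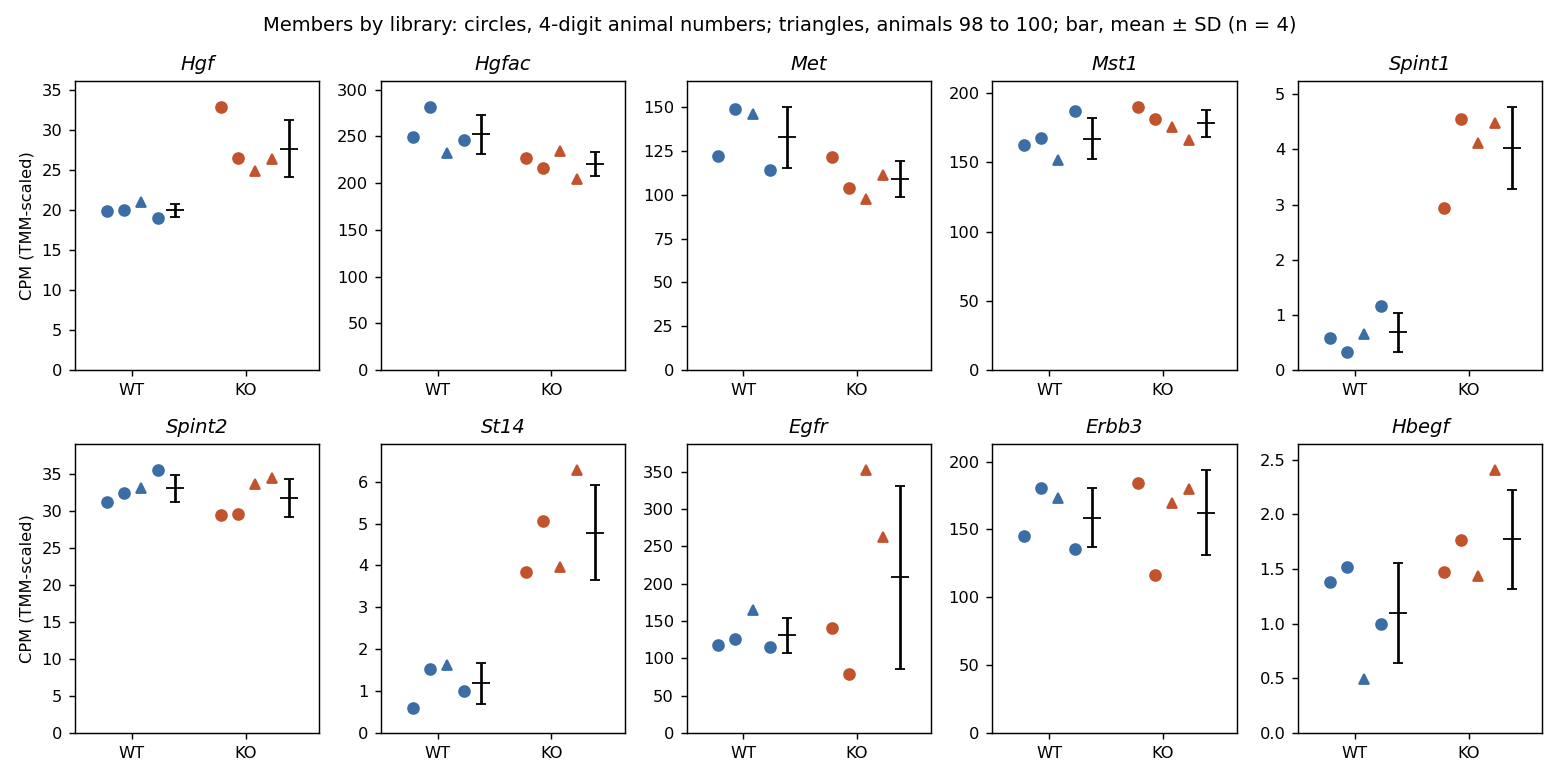
Level of each member in each library (y axis, TMM-scaled CPM from 0), with WT in blue and KO in red. Triangles are the animals numbered 98 to 100, circles those with 4-digit numbers, and the bar is the mean ± SD of 4 libraries. Spint1, St14 and Hgf separate the groups, and in Egfr KO replicates 3 and 4 stand above the rest.

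Spint1 encodes HAI-1, a transmembrane inhibitor with a pair of Kunitz domains that is found on many epithelia. The gene (ENSMUSG00000027315, protein-coding, mm10 chr2:119237362-119249527, plus strand) was counted over 11 exon blocks of 2767 bp. Spint2 encodes the related inhibitor HAI-2 (ENSMUSG00000074227, protein-coding, mm10 chr7:29256331-29281977, minus strand, 7 exon blocks, 1459 bp). The 250 bases before the annotated start of each are shown because these relatives differed in their response. The RefSeq promoter table (GRCm38.p6) gave an entry for 7 of the 10 members, and capitals mark matches to a GC box, GGGCGG, on either strand. The windows are chr2:119237110-119237359 (plus strand) and chr7:29281978-29282227 (minus strand).

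Spint1: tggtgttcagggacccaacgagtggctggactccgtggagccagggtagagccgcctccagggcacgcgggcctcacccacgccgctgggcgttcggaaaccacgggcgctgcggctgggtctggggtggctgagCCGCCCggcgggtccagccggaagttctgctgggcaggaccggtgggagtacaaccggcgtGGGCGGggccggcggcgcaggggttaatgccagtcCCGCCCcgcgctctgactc
Spint2: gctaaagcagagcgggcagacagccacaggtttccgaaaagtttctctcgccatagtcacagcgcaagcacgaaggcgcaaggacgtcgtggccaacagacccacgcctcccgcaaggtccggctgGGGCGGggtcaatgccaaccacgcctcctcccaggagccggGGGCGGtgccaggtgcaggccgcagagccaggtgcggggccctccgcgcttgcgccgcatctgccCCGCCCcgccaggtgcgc

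Both windows are rich in G and C, at 72.8% for Spint1 and 69.6% for Spint2, against a median of 52.4% over 32851 promoter entries. They hold 26 and 24 CpG dinucleotides, where the median entry holds 6. Each has 3 GC boxes, a motif present in 32.7% of all entries. Other motifs were searched on both strands in the same way. The AP-1 motif TGANTCA is held by 6.75% of entries and the TEAD motif GGAATG by 12.6%. The GRHL motif AACCNGGTT is held by 0.24% and the TATA box, written as TATAAA, by 12.4%. Neither inhibitor gene had a match to any of these. The Hgf window before its first start (chr5:16553245-16553494, plus strand, 50.8% G and C, 4 CpG) had no match to any of the 5 motifs. By these measures the promoter windows of the inhibitor genes were alike.

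Spint1 was at 0.583, 0.329, 0.661 and 1.16 CPM in WT replicates 1 to 4 and at 2.94, 4.54, 4.12 and 4.47 CPM in KO replicates 1 to 4. The lowest KO library lay well above the highest WT library, and KO replicate 1 was the lowest of its group. The mean rose from 0.684 ± 0.350 to 4.02 ± 0.742 CPM (SD, n = 4 each), 6.00-fold, or 2.58 on the log2 scale (SE 0.33). Raw counts were between 8 and 131 per library, so the WT level is the less precise one. Within the 4-digit series the log2 fold change was 2.48, and within the 98 to 100 series, which has 1 WT library, it was 2.69.

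Spint2 did not follow. It was at 31.2, 32.4, 33.1 and 35.5 CPM in WT replicates 1 to 4 and at 29.5, 29.5, 33.6 and 34.4 CPM in KO replicates 1 to 4, with overlapping groups. The means were 33.1 ± 1.82 and 31.8 ± 2.62 CPM, and the log2 fold change of -0.06 had an unadjusted 95% interval from -0.26 to 0.14. In WT liver Spint2 exceeded Spint1 per kilobase by a wide margin, at 22.7 ± 1.25 against 0.247 ± 0.127 RPKM. Spint1 thus made up 1.06% ± 0.481 of the summed level of the inhibitor mRNAs in WT libraries and 6.24% ± 1.03 in KO libraries. The share was 0.532% to 1.70% in the first group and 4.996% to 7.50% in the second.

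St14 encodes matriptase, a membrane-bound serine protease of epithelia that HAI-1 and HAI-2 inhibit (ENSMUSG00000031995, protein-coding, mm10 chr9:31089402-31131853, minus strand, 18 exon blocks, 4577 bp). It was at 0.583, 1.52, 1.62 and 0.998 CPM in WT replicates 1 to 4 and at 3.83, 5.06, 3.96 and 6.28 CPM in KO replicates 1 to 4. All KO libraries were above all WT libraries, with KO replicate 4 the highest. The mean rose from 1.18 ± 0.482 to 4.78 ± 1.14 CPM, 4.02-fold, or 2.01 on the log2 scale (SE 0.31), from raw counts of 16 to 167. Within the 4-digit series the value was 2.11, and within the 98 to 100 series 1.66. Per kilobase St14 was at 0.258 ± 0.105 RPKM in WT and 1.05 ± 0.249 RPKM in KO libraries, close to Spint1 in both groups. Against the summed inhibitor level, most of which was Spint2, it rose from 1.12% ± 0.466 to 4.49% ± 0.903. The protease mRNA thus remained far below that sum, but not far below Spint1. The St14 to Spint1 ratio per kilobase was 0.518 to 2.80 in WT and 0.582 to 0.848 in KO libraries.

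Markers of bile duct epithelium moved with Spint1 and St14. Of 14 such markers 11 were called higher and 0 lower, with a median log2 fold change of 2.04, and their summed level was 72.6 to 97.8 CPM in WT and 207 to 313 CPM in KO libraries. Krt7, a keratin of bile duct cells, was at 0.627 ± 0.154 and 3.04 ± 0.911 CPM (edgeR adjusted p = 0.00194), and Krt19, another such keratin, had a log2 fold change of 1.87 (SE 0.38, edgeR adjusted p = 0.0194). None of the 14 was at 0 in all libraries. Their part in the Spint1 and St14 values was not tested. In whole-liver RNA more cells of a type and more RNA per cell cannot be told apart.

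Hgf encodes the ligand (ENSMUSG00000028864, protein-coding, mm10 chr5:16553495-16620152, plus strand, 19 exon blocks, 7186 bp). Its 3' untranslated region is 1159 bases long in the transcript used and holds 7 copies of the pentamer ATTTA, the core of AU-rich elements, a class of sequence that HuR is known to bind. Genes whose 3' untranslated region had 0.8 to 1.25 times that length (1970 genes) held a median of 2, and 78.4% of them held at least 1. The stretch at mm10 chr5:16619778-16619807, plus strand, is shown because it holds 2 of the 7 copies, in capitals.

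Hgf: gctttgttgtttATTTAtATTTAttatcct

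Spint1 had 0 copies in 565 bases, where 55.3% of genes of similar length had at least 1, and St14 had 1 in 464 bases. The 3 members called higher thus held 7, 0 and 1 copies. Of the members not called, Egfr held 12 in 6303 bases and Met 5 in 2157 bases. Erbb3 and Hbegf held 4 each, Spint2 1, and Hgfac and Mst1 0. A longer element, TTATTTATT, was found in 1 of the 10 members, Erbb3, and in 7.33% of 12518 genes. These matches are descriptions of sequence on the transcript strand and say nothing of binding in these livers.

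Hgf was at 19.8, 19.9, 21.0 and 19.0 CPM in WT replicates 1 to 4 and at 32.8, 26.5, 24.8 and 26.4 CPM in KO replicates 1 to 4. The WT libraries were tightly grouped, with a coefficient of variation of 4.04% against 12.8% in the KO group, and KO replicate 1 was the highest library. The mean rose from 19.9 ± 0.805 to 27.6 ± 3.52 CPM, 1.38-fold, or 0.47 on the log2 scale (SE 0.11). Leaving out any 1 library gave 0.38 to 0.52, but the call was lost when WT replicate 1, 2 or 4, or KO replicate 1, 2 or 4, was left out. It was kept without WT replicate 3 or KO replicate 3. Within the 4-digit series the log2 fold change was 0.60, and within the 98 to 100 series 0.29.

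Of 12 stellate cell markers, 1 was called higher, Cygb, and 0 lower, with a median log2 fold change of 0.22. Their summed level was 420 to 464 CPM in WT and 444 to 514 CPM in KO libraries, so these ranges overlap, and none was at 0 in all libraries. Lrat, Des and Reln, defining genes of these cells, had log2 fold changes of 0.16, 0.54 and 0.27 and were not called. In 4 of the 12 stellate markers, Des among them, every KO library lay above every WT library, a pattern of 6.19% of all genes. The log2 fold change was positive in 11 of the 12. Of 10 endothelial markers 0 were called in either direction by edgeR, and their sums of 487 to 575 and 525 to 597 CPM overlapped. Markers of portal fibroblasts and myofibroblasts did separate the groups, with summed levels of 16.3 to 18.8 CPM in WT and 23.4 to 30.4 CPM in KO libraries. Of 7 tested, 1 was called higher, Eln, which encodes elastin, and 0 lower, with a median log2 fold change of 0.66. In 4 of the 7 every KO library lay above every WT library, again beside 6.19% of all genes. Thy1 and Fbln2, other defining genes of these cells, had log2 fold changes of -0.40 and 0.66 and were not called. Mesothelial markers summed to 2.42 to 4.63 CPM in WT and 4.78 to 8.90 CPM in KO libraries. Of 4 tested, 1 was called higher, Gpm6a, with means of 1.98 and 4.35 CPM, and 0 lower. The groups overlapped in the others. Upk3b and Lrrn4 had log2 fold changes of -0.02 and 0.69. Msln was at 0.288 to 0.943 CPM in WT and 0.113 to 1.32 CPM in KO libraries. The part of any of these cell types in the Hgf value was not tested.

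Met encodes the HGF receptor (ENSMUSG00000009376, protein-coding, mm10 chr6:17463800-17573980, plus strand, 22 exon blocks, 7679 bp). It was at 122, 149, 146 and 114 CPM in WT replicates 1 to 4 and at 122, 104, 97.8 and 111 CPM in KO replicates 1 to 4. The groups overlapped, since WT replicate 4 lay among the KO libraries, and WT replicate 1 was barely above KO replicate 1. The log2 fold change was -0.29 (SE 0.11), and Met was not called. Per kilobase the ligand mRNA was at 16.2% ± 1.64 of the receptor mRNA in WT and 27.1% ± 1.42 in KO libraries. That ratio ran from 14.3% to 17.8% in WT and from 25.3% to 28.8% in KO libraries, with no overlap. Hgf was chosen for its rise in this comparison, so nothing is read from the separation.

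Hgfac encodes HGF activator, a serine protease that hepatocytes secrete into plasma (ENSMUSG00000029102, protein-coding, mm10 chr5:35041509-35048461, plus strand, 10 exon blocks, 3410 bp). It was at 249, 281, 232 and 246 CPM in WT replicates 1 to 4 and at 227, 217, 235 and 205 CPM in KO replicates 1 to 4, with KO replicate 3 inside the WT range. The log2 fold change was -0.19 (SE 0.10), and it was not called. Mst1 encodes macrophage-stimulating protein, a hepatocyte-made relative of HGF whose receptor is encoded by Mst1r (ENSMUSG00000032591, protein-coding, mm10 chr9:108080436-108085003, plus strand, 18 exon blocks, 2262 bp). Mst1 was at 163, 168, 152 and 187 CPM in WT replicates 1 to 4 and at 190, 181, 176 and 166 CPM in KO replicates 1 to 4. These values overlap, and the log2 fold change was 0.09 (SE 0.09), not called.

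**Figure D2:**
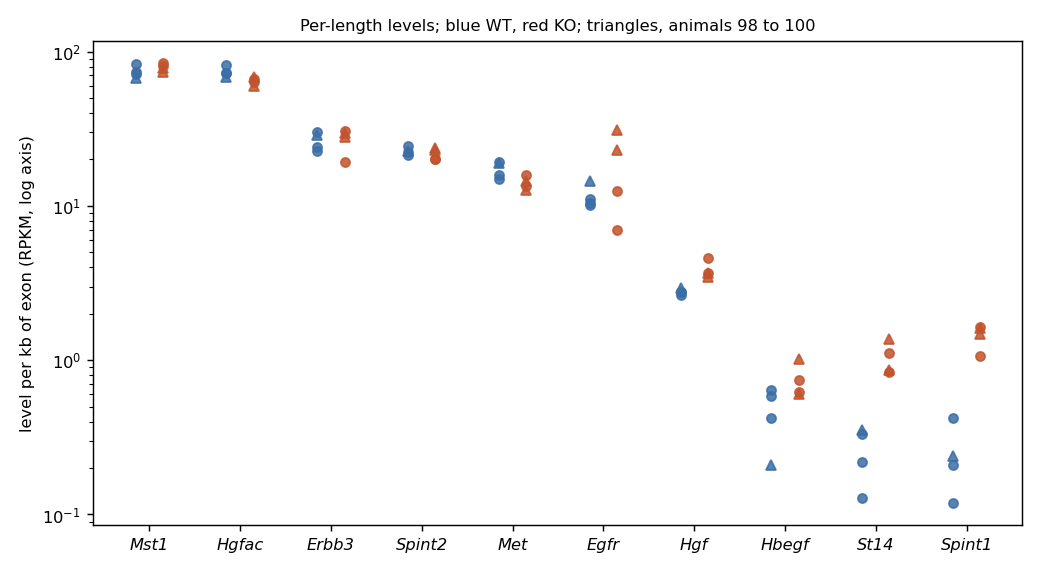
Per-length level of each member in each library (y axis, RPKM on a log axis), ordered by the WT mean, with WT in blue, KO in red and triangles for the animals numbered 98 to 100. Mst1 and Hgfac lead at 73.9 RPKM each in WT, and Spint1, St14 and Hbegf lie below 2 RPKM in every library.

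Per kilobase of exon, Mst1 and Hgfac were the most abundant of the 10 mRNAs in WT liver, at 73.9 ± 6.56 and 73.9 ± 6.07 RPKM, and could not be ranked against each other. Erbb3 (26.4 ± 3.59) and Spint2 (22.7 ± 1.25 RPKM) followed, with overlapping ranges. Met (17.3 ± 2.23), Egfr (11.5 ± 2.07) and Hgf (2.78 ± 0.112 RPKM) came next, each with a range apart from its neighbours. Hbegf (0.464 ± 0.194), St14 and Spint1 stood last and overlapped one another. In KO libraries Mst1 (78.8 ± 4.38 RPKM) and Hgfac (64.8 ± 3.80 RPKM) no longer overlapped. Spint1 (1.45 ± 0.268 RPKM), St14 and Hbegf (0.746 ± 0.189 RPKM) again took the last places, Spint1 overlapping St14 and St14 overlapping Hbegf.

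**Figure D3:**
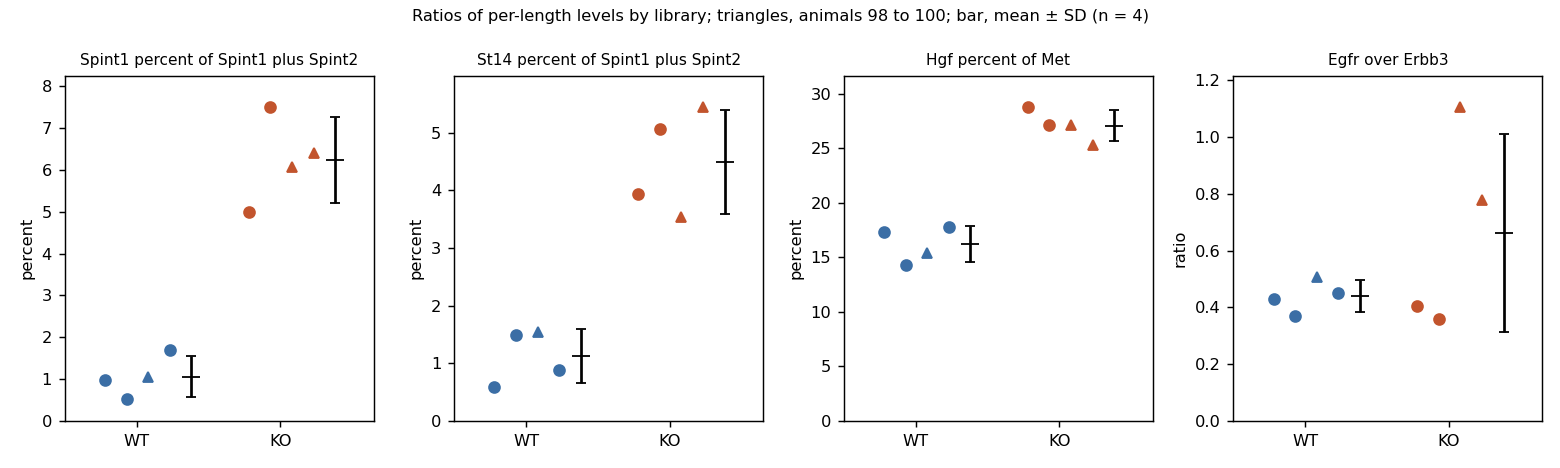
Ratios of per-length levels in each library (y axes, percent or ratio from 0), with WT in blue and KO in red. Triangles are the animals numbered 98 to 100, and bars are the mean ± SD of 4 libraries. The Hgf to Met ratio and both inhibitor ratios separate the groups, while the Egfr to Erbb3 ratio is above 0.7 in KO replicates 3 and 4 only.

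Egfr encodes the EGF receptor (ENSMUSG00000020122, protein-coding, mm10 chr11:16752203-16918158, plus strand, 30 exon blocks, 11326 bp). It was at 118, 126, 165 and 115 CPM in WT replicates 1 to 4 and at 141, 78.6, 352 and 263 CPM in KO replicates 1 to 4. KO replicate 2 was the lowest of all 8 libraries and KO replicate 3 the highest, so the groups overlapped. The KO libraries spanned 4.48-fold, and 1.95% of tested genes had a larger SD of log2 CPM in that group. The log2 fold change was 0.67 with an SE of 0.46, and Egfr was not called. It was -0.12 within the 4-digit series, 0.90 within the 98 to 100 series and 0.23 with the series as a covariate. Leaving out 1 library gave 0.30 (without KO replicate 3) to 0.94 (without KO replicate 2).

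The 3 highest Egfr libraries were the animals numbered 98 to 100, of which 1 was WT. That library, WT replicate 3 at 165 CPM, was nearer to KO replicate 1 of the 4-digit series (141 CPM) than to KO replicates 3 and 4 (352 and 263 CPM). With genotype held, the difference between the number series was 1.08 on the log2 scale (SE 0.30, unadjusted p = 0.0114, edgeR adjusted p = 0.153), higher in 3 of 3 libraries of that series than in all 5 others. This contrast did not enter the choice of the genes. It called 2.41% of all genes and 0 of the 10 members, with 1 member, Egfr, at an unadjusted p under 0.05 (16.5% of all genes). Without KO replicate 2 Egfr was called (log2 difference 0.78, edgeR adjusted p = 0.0401), and its adjusted p otherwise missed the threshold in each fit tried. A difference of the genotype effect between the series was tested as an interaction, which called 0 members and 0.0205% of all genes. At an unadjusted p under 0.05, which 6.4% of all genes met, that test had Egfr (interaction 1.02, SE 0.40, edgeR adjusted p = 0.737) and Hbegf (1.64, SE 0.75, edgeR adjusted p = 0.762). It rests on 1 WT library of the series numbered 98 to 100, and without a low-count filter Egfr was called (interaction 0.9999, edgeR adjusted p = 0.00177).

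Erbb3 encodes a receptor with little kinase activity of its own that signals by pairing with other family members (ENSMUSG00000018166, protein-coding, mm10 chr10:128567523-128589652, minus strand, 28 exon blocks, 6016 bp). It was at 145, 181, 173 and 136 CPM in WT replicates 1 to 4 and at 184, 116, 169 and 180 CPM in KO replicates 1 to 4. Apart from the low KO replicate 2 the KO libraries lay within or just above the WT range, and the log2 fold change was 0.03 (SE 0.14). The unadjusted 95% interval was from -0.28 to 0.34. The Egfr to Erbb3 ratio per kilobase was 0.369 to 0.507 in WT libraries, 0.405 and 0.360 in KO replicates 1 and 2, and 1.11 and 0.777 in KO replicates 3 and 4. The TTATTTATT element of Erbb3 lies in its 3' untranslated region at mm10 chr10:128568184-128568213, minus strand, in capitals below.

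Erbb3: actgtaaggaTTATTTATTtcaggaacttg

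Hbegf encodes heparin-binding EGF-like growth factor, a membrane-anchored ligand of the EGF receptor (ENSMUSG00000024486, protein-coding, mm10 chr18:36504929-36515805, minus strand, 6 exon blocks, 2373 bp). It was at 1.39, 1.52, 0.496 and 0.998 CPM in WT replicates 1 to 4 and at 1.47, 1.77, 1.44 and 2.41 CPM in KO replicates 1 to 4, from raw counts of 15 to 64. WT replicate 3 was the lowest and KO replicate 4 the highest library, and the groups overlapped. The log2 fold change was 0.69 (SE 0.37), not called, with 0.31 within the 4-digit series and 1.95 within the 98 to 100 series.

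**Figure D4:**
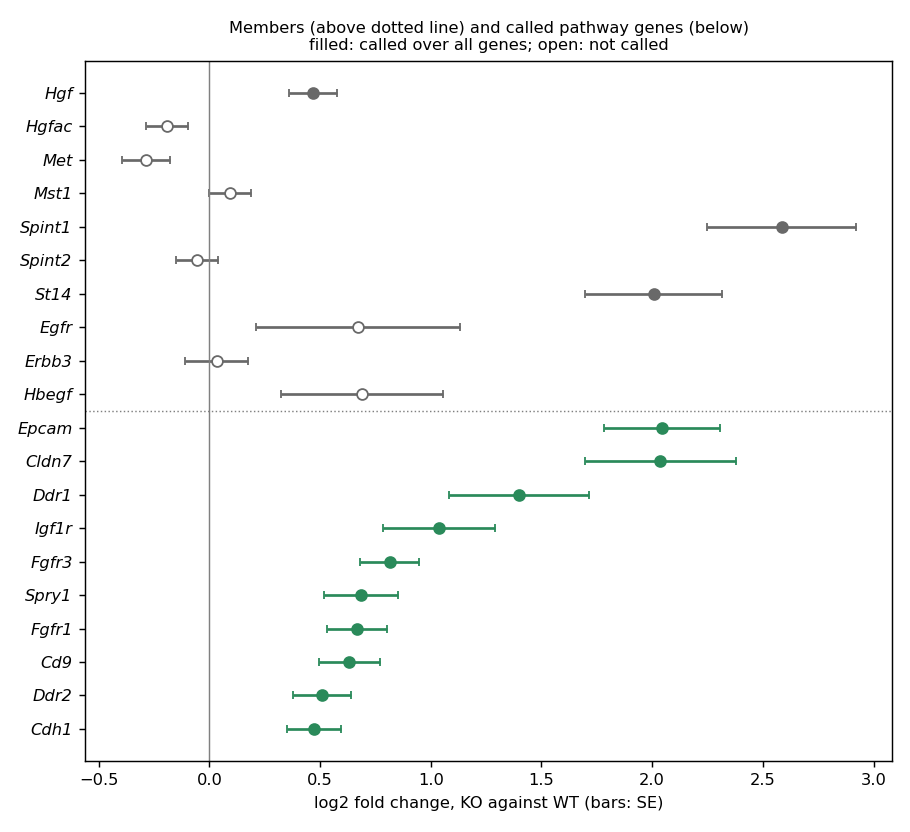
Log2 fold change of KO against WT (x axis, bars are the SE) for the 10 members above the dotted line and for the 10 pathway genes called by edgeR below it. Filled points were called over all genes and open points were not. All 13 filled points lie to the right of 0.

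Around the members, 131 other genes in 6 lists were followed, of which 119 were tested. Of these 10 were called higher and 0 lower in the KO libraries, against 2.32% and 1.37% of all genes. Egf and Nrg4 were among the list genes lower at an unadjusted p under 0.05. The lists were drawn up with earlier results of these data known. Each list as a whole is described by its counts and median, with no test of the list. Adjusted p-values of single list genes come from the edgeR fit over all genes and are not independent support.

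Among 18 tested genes of HGF and MSP activation (receptor, activating proteases and their inhibitors), edgeR called 0, limma-voom 0 and DESeq2 1, Prss8. At an unadjusted p under 0.05 there were 3 higher and 0 lower, and the median log2 fold change was 0.09. Prss8, which encodes prostasin, a membrane-anchored protease that works with matriptase, was at 1.87 ± 0.124 and 3.31 ± 0.663 CPM (edgeR adjusted p = 0.0682). Every KO library lay above every WT library. Plat, encoding tissue plasminogen activator, was at 0.505 ± 0.146 and 1.16 ± 0.514 CPM (edgeR adjusted p = 0.151). Hpn, which encodes hepsin, an abundant hepatocyte protease that can also cut HGF and was chosen after its values were seen, was at 335 CPM or more in every library, with a log2 fold change of 0.02 (SE 0.11).

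The matriptase network of epithelia had 7 tested genes, of which 3 rose and 0 fell, with a median log2 fold change of 0.83. Epcam, an adhesion protein that matriptase can cleave, rose from 1.91 ± 0.790 to 8.01 ± 1.54 CPM (edgeR adjusted p = 0.000902). Cldn7, a claudin that binds EpCAM, rose from 0.594 ± 0.133 to 2.46 ± 0.735 CPM (edgeR adjusted p = 0.00447). Both are also on the bile duct marker list. Cdh1, which encodes E-cadherin, rose to 56.7 ± 4.13 from 40.9 ± 7.56 CPM (edgeR adjusted p = 0.0452). Cdh1 was called without WT replicate 3 or WT replicate 4, but not when any other library was left out, where Epcam and Cldn7 were. Within the 4-digit series alone, Epcam was the 1 gene of this list that was called.

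Of 19 tested ligands, receptors and regulators of the EGF receptor family, 1 rose and 0 fell, with a median log2 fold change of 0.08. Cd9, a tetraspanin that associates with the membrane form of HB-EGF, rose from 9.54 ± 1.13 to 14.8 ± 1.96 CPM (log2 fold change 0.63, SE 0.14, edgeR adjusted p = 0.0223). It lost its call when WT replicate 1, WT replicate 2, KO replicate 3 or KO replicate 4 was left out, and within the 4-digit series. Nrg4, a neuregulin gene with a log2 fold change of -0.58 (SE 0.23) and not called over the 8 libraries, was called without WT replicate 3 and within the 4-digit series. Errfi1, which encodes a feedback inhibitor of the EGF receptor, was chosen after its values were seen. It was at 1586, 1931, 1822 and 1537 CPM in WT replicates 1 to 4 and at 1894, 1964, 1096 and 817 CPM in KO replicates 1 to 4. The low values were those of the libraries highest in Egfr, while WT replicate 3 was not low. Errfi1 was not called (log2 fold change -0.25, SE 0.26).

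None of 31 receptor adaptors and kinases of the RAS-ERK and PI3K routes was called by edgeR, DESeq2 or limma-voom, with 1 higher and 1 lower at an unadjusted p under 0.05 and a median of -0.01. Mapk3, encoding the kinase ERK1, was at 27.9 ± 2.20 and 34.99 ± 3.56 CPM (edgeR adjusted p = 0.0981) and was called without WT replicate 3.

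Of 22 tested genes of the ERK response and its feedback, 1 rose and 0 fell, with a median of 0.25. Spry1, encoding a feedback inhibitor of receptor tyrosine kinase signalling, was at 8.57, 8.84, 9.25 and 7.65 CPM in WT replicates 1 to 4 and at 19.0, 13.5, 11.6 and 11.2 CPM in KO replicates 1 to 4. As in Hgf, KO replicate 1 was the highest library. Spry1 had a log2 fold change of 0.68 (SE 0.17, edgeR adjusted p = 0.0366). It was not called by limma-voom, nor when WT replicate 1, 2 or 4, or KO replicate 1, 2 or 3, was left out. Without KO replicate 2 the 1 gene called was Junb, which encodes an AP-1 subunit. Leaving out WT replicate 3 added Ccnd1 and Etv5, for 3 calls. With the replicate numbers as a block it was 2, with Ier2 added.

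Other receptor tyrosine kinases had 23 tested genes, of which 5 rose and 0 fell, with a median of 0.22. The fibroblast growth factor receptor genes Fgfr3 and Fgfr1 rose from 36.9 ± 5.63 to 64.99 ± 11.3 CPM and from 7.245 ± 0.632 to 11.5 ± 0.986 CPM (edgeR adjusted p = 0.00442 and 0.0139). Ddr1, a collagen receptor gene, rose from 2.79 ± 1.54 to 7.43 ± 1.30 CPM, and the insulin-like growth factor receptor gene Igf1r from 1.79 ± 0.398 to 3.70 ± 0.816 CPM (edgeR adjusted p = 0.0293 and 0.0362). Ddr2, the fifth gene, named after its values were seen because the count is small, had a log2 fold change of 0.51 (SE 0.13). Fgfr3 alone was called without WT replicate 2 and without KO replicate 4. There were 2 calls without WT replicate 4 or KO replicate 1 or 3, and 3 without WT replicate 1, by limma-voom and with the replicate block. Without WT replicate 3 there were 8.

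The number series separated some of these genes as well. With genotype held, 6 of the 119 tested list genes were called, against 2.41% of all genes. Of the 6, 5 were higher and 1 was lower in the animals numbered 98 to 100. Ccnd1, which encodes cyclin D1 and responds to growth factor signals, differed by 1.06 on the log2 scale (SE 0.15, edgeR adjusted p = 0.0073). It was at 22.9, 25.4, 70.02 and 30.1 CPM in WT replicates 1 to 4 and at 57.2, 41.5, 81.7 and 86.1 CPM in KO replicates 1 to 4, so that WT replicate 3 lay among the KO libraries. The gene was chosen after its values were seen.

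Genes whose levels most resembled those of Spint1 and Hgf were ranked by Pearson's r of log2 CPM over the 8 libraries among 11775 genes, as a description with no test. All values share the same libraries and the genotype difference. For Spint1 these were Enah (r = 0.988), Cacna1a (0.986), C1qtnf6 (0.986), Mmp7 (0.984) and Cttnbp2 (0.983), all called higher. For Hgf they were Spry1 (r = 0.976), Map1s (0.975), Rfwd3 (0.972), Tnxb (0.963) and Top2b (0.962), of which Spry1 alone was called. With the group means subtracted, r with Hgf was 0.946 for Spry1, 0.874 for Map1s, 0.917 for Rfwd3, 0.792 for Tnxb and 0.84 for Top2b. For the 5 genes ranked with Spint1 it was 0.842 (Mmp7) to 0.898 (Enah).

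**Figure D5:**
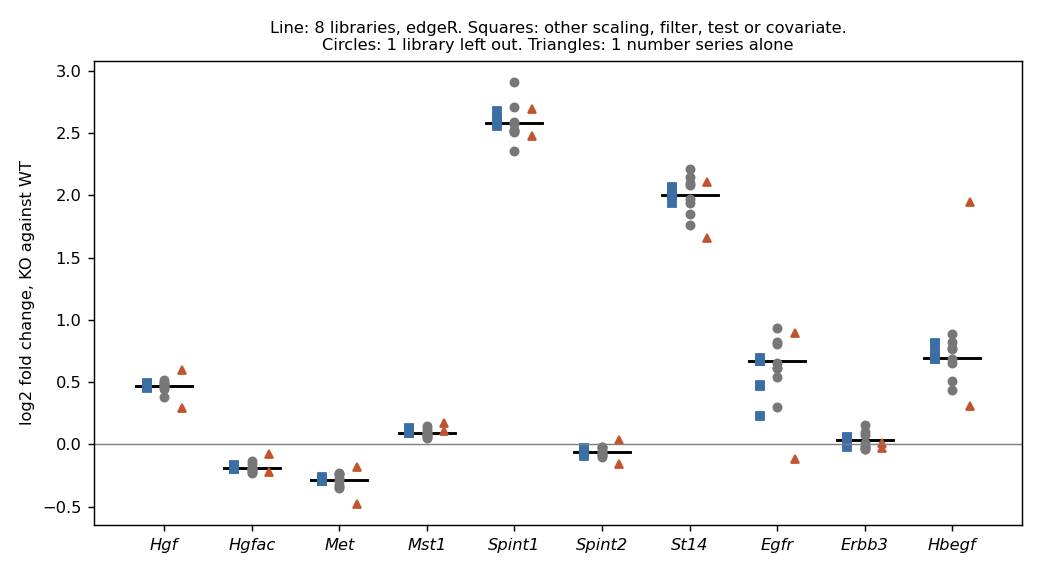
Log2 fold change of KO against WT (y axis) of each member under every alternative. Lines are the values over the 8 libraries, squares another scaling, filter, test or covariate, circles 1 library left out and triangles 1 number series alone. Spint1, St14 and Hgf stay above 0 in all of them, and Egfr ranges from -0.12 to 0.94.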

How the data were processed

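The authors deposited raw read counts per gene, 1 column per library. The submitters' processing notes name bcl2fastq 2.19.1, the aligner GSNAP, featureCounts 1.5.1 and mm10. Per the file headers, counting used the Ensembl 81 annotation, strand setting 2 and a minimum mapping quality of 1, with no option for multi-mapping reads. The 92 spike-in rows were left out. Symbols were matched for 45143 of 45706 gene rows, and 1 list gene, Klkb1, was not analysed here.

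The fit over all genes used edgeR 4.0.16 (R 4.3.3): filterByExpr (minimum count 10), TMM scaling, the quasi-likelihood test with robust estimation on genotype alone, and Benjamini-Hochberg adjustment over 14645 genes (log2 CPM with a prior count of 2). Called means an adjusted p under 0.05, and the SE came from the F statistic. The fit was tested on simulated counts. Total counts limit precision most for Spint1, St14 and Hbegf. Alternatives were RLE and upper quartile scaling, other filters, DESeq2 1.42.0, limma-voom (limma 3.58.1), the number series, a replicate block and each library left out. Named list genes were up to 4 called by smallest p, or the 2 with the smallest p where none was called. The values of 1 gene this rule names are not reported here. The members and lists were chosen with earlier results of these data known. Sequences came from RefSeq (GRCm38.p6) and from GENCODE M21 transcripts, using the principal transcript with the longest 3' untranslated region.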

Additional observations from a re-analysis of the deposited data

How the results depend on the processing

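Spint1, St14 and Hgf were called higher by edgeR with either other scaling, either filter, the number series or a replicate block, by DESeq2 and limma-voom, and within the 4-digit series. Hgf lost its call without 6 of the 8 libraries in turn. Of 179 members' fold changes under alternatives, 0 called ones reversed and 3 moved by more than the spread between replicates. Those 3, of Hgf, Met and Hbegf, came from the 98 to 100 series, which has 1 WT library. The spread was the gene's larger group SD of log2 CPM, so a variable gene seldom counts as moved. Egfr did not, though it was -0.12 within the 4-digit series. Hbegf had no value at a minimum count of 50, and the 98 to 100 series gave values with no test. Counts of called genes depended on the setting, and the causes were not tested. Over all genes 613 rose and 495 fell by DESeq2 (340 and 201 by edgeR), 215 rose within the 4-digit series, and 328 and 308 fell without a filter and with the number series. Leaving out single libraries gave 151 to 710 higher and 71 to 534 lower. The HGF activation count was 1 by DESeq2, and the ERK response count was 0 by limma-voom, 2 without a filter, by DESeq2, with the replicate block or within the 4-digit series, and 3 with the number series. The matriptase count was 1 within the 4-digit series, and the count of other receptor kinases was 3 by limma-voom or with the block. With 1 library left out these counts ran from 0 to 1 for HGF activation, 0 to 2 for the EGF receptor family, 0 to 1 for adaptors, 0 to 3 for the ERK response, 2 to 3 for the matriptase network and 1 to 8 for other receptor kinases. The number series called 0 to 1 members, and without a filter the interaction called 1, Egfr. Same-numbered replicates were not treated as pairs: the correlations of their deviations from the group means were 0.0255, 0.0251, 0.122 and -0.147, and not every library correlated best with its own number. The block gave 353 higher and 211 lower genes. Depth limits Spint1, St14 and Hbegf, with 8 to 16 reads in their lowest libraries.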
